A study of Arabidopsis thaliana with 11 samples.

Results

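MBD6 is a protein of Arabidopsis thaliana with a methyl-CG-binding domain, and most peaks of an MBD6-RFP fusion in wild type plants fell in regions already listed as bound by MBD5 or MBD6. The 685 peaks described here are those that did not. They are the peaks of both wild type MBD6-RFP libraries on chromosomes 1 to 5 that shared no base with any region of the deposited MBD5/MBD6 list, out of 4736 wild type MBD6-RFP peaks and 36079 regions in the 8 deposited library lists. Replicate 1 held 617 of them among 3492 peaks, which is 17.7% of its list, and replicate 2 held 68 among 1244, which is 5.47%. They are called outside peaks below, and the remaining 2875 and 1176 wild type peaks are called inside peaks. The outside peaks were chosen by the measured peak calls and their positions. Their number, their share and their fold enrichment are therefore descriptions, and no conclusion is drawn from a test on them.

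The libraries are chromatin immunoprecipitations followed by sequencing from inflorescences of Col0 plants, grown on soil in long days (light for 16 h, dark for 8 h). MBD6-RFP was expressed from a transgene in wild type plants (2 libraries) and in acd15 acd21 double mutants (2 libraries), and the sources used here do not give the promoter of the transgene. ACD15 carried a 3XFLAG tag (transgene ACD15.5-3XFLAG, 2 libraries) and so did ACD21 (ACD21.4-3XFLAG, 2 libraries), both in plants labelled wild-type, and 3 further libraries came from wild-type plants without a transgene and are not analysed here. The FLAG libraries are batch 1 and the RFP libraries are batch 2 by their labels, so ACD15 or ACD21 against MBD6 and the batch cannot be told apart. The antibody label reads anti-FLAG M2 for every library, although the titles of batch 2 name RFP. Peak lists hold no expression values, so the labelled tissue could not be checked against markers, and no read depth. A peak missing from a list was not called or, in the MBD6-RFP lists, may have been removed after calling. Neither is the same as unbound. Below, "not called" means absent from the deposited list. The labels do not say that replicates came from separate plants, so the spread between them may be technical.

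As background, methyl-CG-binding domain proteins recognise cytosines that carry a methyl group within the dinucleotide CG. In plants, CG methylation is dense over transposons and other repeats, which crowd the gene-poor chromatin around centromeres, and is also found in the bodies of many genes. MBD5 and MBD6 are close relatives that take part in silencing at methylated DNA. ACD15 and ACD21 each carry an alpha-crystallin domain, a fold shared with small heat shock proteins, and work with MBD5, MBD6 and the J-domain protein SLN at methylated sites. CG dinucleotides are therefore in capitals in the sequences that follow, all of which were read from the RefSeq copy of TAIR10.1 and are the reference sequence, not the plants' own. No methylation data were analysed here.

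The highest outside peaks sat on arrays of one CG-rich tandem repeat. There were 7 such arrays, named A to G here. They are the outside peaks that hold at least 3 copies of the letters TTTCCCGCC on either strand, a word chosen after the strongest peaks had been read. From each, the 140 bases with the highest match to themselves one repeat further on are shown, in the orientation that reads TTTCCCGCC, because the repeat unit can be followed by eye. They lie at chr3:17382946-17383085 on the plus strand (A), chr3:16353784-16353923 on the minus strand (B), chr3:11602954-11603093 on the minus strand (C), chr1:17710229-17710368 on the plus strand (D), chr1:16738232-16738371 on the minus strand (E), chr5:14018498-14018637 on the plus strand (F) and chr1:22105843-22105982 on the minus strand (G).
array A: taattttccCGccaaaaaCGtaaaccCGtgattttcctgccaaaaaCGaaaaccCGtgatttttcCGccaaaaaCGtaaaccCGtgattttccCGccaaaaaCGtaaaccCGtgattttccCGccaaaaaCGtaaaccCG
array B: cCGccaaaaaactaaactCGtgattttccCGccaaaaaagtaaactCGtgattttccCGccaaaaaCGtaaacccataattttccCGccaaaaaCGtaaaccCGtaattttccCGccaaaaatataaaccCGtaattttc
array C: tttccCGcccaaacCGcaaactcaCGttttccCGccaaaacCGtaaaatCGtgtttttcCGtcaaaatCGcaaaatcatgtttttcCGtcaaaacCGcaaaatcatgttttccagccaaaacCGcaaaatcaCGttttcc
array D: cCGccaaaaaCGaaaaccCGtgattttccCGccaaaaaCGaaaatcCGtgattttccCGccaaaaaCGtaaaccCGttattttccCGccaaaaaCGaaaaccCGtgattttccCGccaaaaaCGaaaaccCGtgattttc
array E: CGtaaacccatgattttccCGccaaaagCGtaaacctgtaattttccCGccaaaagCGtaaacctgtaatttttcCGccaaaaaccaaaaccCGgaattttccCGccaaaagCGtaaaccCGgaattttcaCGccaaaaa
array F: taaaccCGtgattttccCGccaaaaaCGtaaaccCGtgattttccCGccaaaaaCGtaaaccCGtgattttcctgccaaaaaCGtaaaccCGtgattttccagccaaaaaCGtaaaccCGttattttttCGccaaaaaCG
array G: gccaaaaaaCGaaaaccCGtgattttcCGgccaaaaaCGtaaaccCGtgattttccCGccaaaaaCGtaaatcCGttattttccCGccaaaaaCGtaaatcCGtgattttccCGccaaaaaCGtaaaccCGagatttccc

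The unit is 28 bases long in 6 of the arrays and 27 bases long in array C. The most frequent base at each of the 28 positions of array A gave the unit ccCGccaaaaaCGtaaaccCGtgatttt, which holds 3 CG dinucleotides. Arrays F and G gave the same unit, array D matched it at 96.4% of positions, and arrays B and E at 92.9%. Longest pairwise alignments between the peaks of A, B, D, E, F and G had identities from 78.1% (B with E) to 88.4% (F with G), and array C aligned to the others at 71.9% to 74.2%. The printed stretches hold 14 CG in A, 11 in B, 12 in C, 15 in D, 11 in E, 13 in F and 14 in G. TTTCCCGCC occurred in 0.221% of all 592765 consecutive windows of the 5 chromosomes, each as long as a summit window, which is the summit and 100 bp to either side. These letters are also a consensus known for E2F cell cycle transcription factors, for which nothing was measured here.

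Fold enrichment, the peak caller's own ratio of signal to its background as the authors deposited it, was highest at these arrays. Array A, at chr3:17382202-17384037, had 27.8 in wild type replicate 1, 27.5 in wild type replicate 2 and 30.6 in acd15 acd21 replicate 1. It lay 1193 bp beyond the end of AT3G07655, a gene for a long noncoding RNA, and the gap from the peak to the nearest MBD5/MBD6 region was 8270 bp. Array B, at chr3:16352939-16354644, had 24.3 and 28.3 in the wild type replicates and 26.2 in acd15 acd21 replicate 1, and it had no peak in any ACD15 or ACD21 library list. Array D, at chr1:17709355-17711001, had 18.2 and 23.1 in wild type and 25.3 in acd15 acd21 replicate 1. These were the 3 arrays called in both wild type replicates. At each of these arrays the acd15 acd21 value of replicate 1 was above the wild type value of replicate 1. Array C went the other way, with 20.4 in wild type replicate 1 and 12.5 in acd15 acd21 replicate 1. A shift between the genotypes was not tested. The acd15 acd21 replicate 2 list, which holds 404 peaks in all, had no peak at any of the 7.

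Arrays C, E, F and G were called in 1 wild type replicate each. Array C, at chr3:11602174-11603927 within the pseudogene AT3G29788, had 20.4 in wild type replicate 1 and 12.5 in acd15 acd21 replicate 1. Array E, at chr1:16737787-16738703 and 908 bp upstream of AT1G44050, had 14.4 in wild type replicate 1 and was not called in the RFP lists of the mutant. Array F, at chr5:14018419-14018955 in the pseudogene AT5G35860, had 24.3 in wild type replicate 2. Array G, at chr1:22105623-22106328, had 14.5 in wild type replicate 2 and was the outside peak with the highest CG density, 8.50 CG per 100 bases, among the highest-scoring ones. Each of C, D, E and G had a peak in all 4 FLAG lists, and their folds there were lower than in MBD6-RFP, between 3.00 (array E, ACD15 replicate 1) and 9.36 (array D, ACD15 replicate 2); folds are compared most safely within a list.

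**Figure D1:**
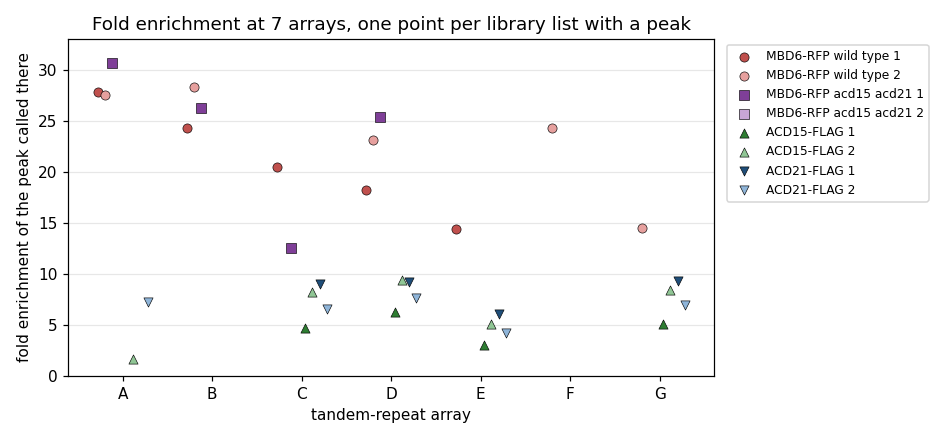
Fold enrichment (vertical axis, the peak caller's ratio) of the peak called at each of the arrays A to G (horizontal axis), one point for each library list that has a peak there. The MBD6-RFP points run from 12.5 to 30.6 and the ACD15-FLAG and ACD21-FLAG points from 1.67 to 9.36; array F has a single point and acd15 acd21 replicate 2 has none.

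The same repeat was not particular to the outside peaks. Peaks with at least 3 copies of TTTCCCGCC made up 5 of 617 outside and 128 of 2875 inside peaks in replicate 1 (0.810% and 4.45%), and 5 of 68 and 77 of 1176 in replicate 2 (7.35% and 6.55%). A match to the sequence of these arrays over at least 50% of the summit window was found in 79 inside peaks of replicate 1, with a median fold of 22.6, and in 64 of replicate 2, with a median fold of 16.3. In acd15 acd21 replicate 1 it was found in 66 inside peaks, with a median fold of 16.0. In acd15 acd21 replicate 2 it was found in 0 of 344 inside peaks, so that list lacked the repeat inside as well as outside. In wild type replicate 1, 25 peaks shared the highest score of the list, 1545, and 1 of them was an outside peak, array A. The highest fold of that list, 27.8, was the same for outside and inside peaks. The score is 10 times the -log10 q value in these lists.

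Away from the arrays, most outside peaks were low. The median fold was 3.29 for the 617 outside peaks of replicate 1 (quartiles 2.81 and 3.83) against 5.16 for the inside peaks, and 3.62 for the 68 of replicate 2 (quartiles 2.93 and 4.33) against 4.09. A fold of 5 or more was reached by 36 outside peaks of replicate 1 (5.83%) and 12 of replicate 2 (17.6%), and by 52.6% and 33.8% of the inside peaks. Outside peaks were also narrower, with a median width of 513 bp against 668 bp in replicate 1 and 323 bp against 366.5 bp in replicate 2. Their median distance to the nearest MBD5/MBD6 region was 1996 bp in replicate 1 and 4102 bp in replicate 2. The nearest ones lay 21 and 34 bp away in replicate 1, with folds of 3.19 and 2.65, and 237 and 254 bp away in replicate 2, with folds of 8.78 and 2.92. On the other side of the rule, the inside peaks with the least overlap shared 10 and 15 bp in replicate 1 (folds 3.06 and 2.70) and 40 and 117 bp in replicate 2 (folds 3.24 and 4.19).

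**Figure D2:**
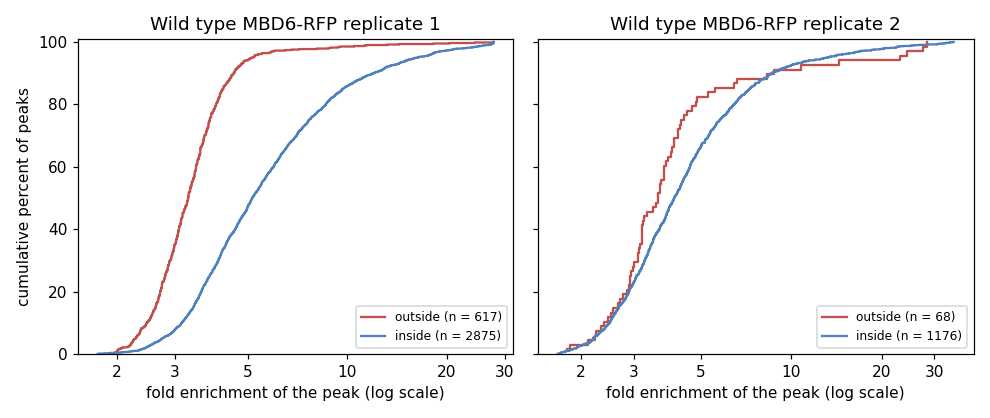
Cumulative percent of peaks (vertical axis) up to a given fold enrichment (horizontal axis, log scale) for outside and inside peaks of each wild type MBD6-RFP replicate. The curve of outside peaks lies to the left of that of inside peaks in replicate 1 (medians 3.29 and 5.16) and the curves run closer in replicate 2 (3.62 and 4.09), with a few outside peaks above 20 in both.

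Surroundings differed between high and low outside peaks of replicate 1. Of the 10 with the highest score, 9 overlapped a merged ACD15 region and 9 a merged ACD21 region, 1 had its centre in a pseudogene and 1 lay in a gene-poor bin. Of the other 607, 30 overlapped an ACD15 region and 15 an ACD21 region, 309 had their centre in a pseudogene and 511 lay in a gene-poor bin. Among all peaks of the replicate 1 list, 66.2% overlapped an ACD15 region and 52.9% an ACD21 region. In that list 24.9% had their centre in a pseudogene and 43.6% lay in a gene-poor bin. Array A, among the 10 highest, shared 4 of its 1836 bp with an ACD15 region. Gene-poor bins are the 200 of 1193 bins of 100 kb in which protein-coding exons cover under 20% of the bases. Split into 4 equal parts by score from high to low, the number in an ACD15 region was 26, 7, 5 and 1, and the share in gene-poor bins was 75.5%, 81.2%, 85.7% and 89.6%. The same 4 parts of replicate 2 followed no such order, with 11, 8, 10 and 5 peaks in an ACD15 region and 29.4%, 70.6%, 47.1% and 52.9% in gene-poor bins. In replicate 2, 7 of the 10 highest overlapped an ACD15 region, 8 an ACD21 region, 4 had their centre in a pseudogene and 2 lay in a gene-poor bin; of the other 58, 27 overlapped ACD15, 37 had their centre in a pseudogene and 32 lay in a gene-poor bin. Among all peaks of the replicate 2 list, 83.8% overlapped an ACD15 region and 71.1% an ACD21 region. In that list 42.4% had their centre in a pseudogene and 54.7% lay in a gene-poor bin. These rankings use the values that chose the peaks and are descriptions.

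Other high outside peaks held no such repeat. The peak at chr3:7040052-7041453 had folds of 11.4 in wild type replicate 1, 10.8 in replicate 2 and 7.10 in acd15 acd21 replicate 1, and 4.07 and 6.92 in ACD15 and 4.19 and 3.09 in ACD21. Its summit lay 295 bp beyond the end of AT3G20160, annotated as a terpenoid synthase superfamily gene, and it was the highest outside peak called in both wild type replicates that holds no array. The peak at chr1:10813999-10814721, within the long noncoding RNA gene AT1G06347, had 10.5 in wild type replicate 1 and between 5.72 and 9.19 in the 4 FLAG lists. The peak at chr2:11668817-11670001, 340 bp upstream of AT2G27260, annotated as a late embryogenesis abundant hydroxyproline-rich family gene, had 13.2 in wild type replicate 1 and 5.11 in acd15 acd21 replicate 1. The summit windows of 2 peaks are shown, the first from the peak near AT3G20160 (chr3:7040393-7040593, plus strand, 7 CG) and the second from the peak with the lowest CG density among the highest-scoring ones (chr3:17177249-17177449, plus strand, 5 CG), since they contrast with the arrays.
peak near AT3G20160: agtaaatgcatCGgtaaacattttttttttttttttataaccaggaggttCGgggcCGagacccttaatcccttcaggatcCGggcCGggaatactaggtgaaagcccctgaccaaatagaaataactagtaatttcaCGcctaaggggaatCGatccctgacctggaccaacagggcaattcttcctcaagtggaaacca
peak near AT3G07505: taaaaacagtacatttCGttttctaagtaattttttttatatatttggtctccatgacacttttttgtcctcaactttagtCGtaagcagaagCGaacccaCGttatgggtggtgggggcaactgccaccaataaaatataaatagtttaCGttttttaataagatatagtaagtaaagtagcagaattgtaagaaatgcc

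The latter, chr3:17176994-17177673, had a fold of 8.78 and 2.06 CG per 100 bases, and its summit lay 12 bp upstream of the long noncoding RNA gene AT3G07505. A neighbouring peak at chr3:17178165-17178778 had a fold of 9.38 and lay over MIR5651, a gene for a microRNA precursor. Both were called in both ACD15 replicates, with folds of 3.19 and 5.95 for the first and 5.08 and 8.16 for the second. Neither was called in the acd15 acd21 lists. In replicate 1 the peaks at chr2:10351648-10352609, 1142 bp beyond the long noncoding RNA gene AT2G08005, and at chr3:5286094-5286820, upstream of the pseudogene AT3G15602, had folds of 11.3 and 9.51, with 4.26 and 3.65 in acd15 acd21 replicate 1.

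Besides the peak near AT3G20160, 6 peaks of replicate 2 without arrays were named by their score or because they lie in an ACD15 or ACD21 region, with folds from 4.83 to 8.33. The peak at chr2:3229648-3230047 in AT2G07660 had a fold of 8.33 and that at chr2:24777-25187 in AT2G01028 had 5.30. The peak at chr2:6316154-6316556 had 6.46, with 4.18 and 7.73 in the ACD15 lists and 7.47 and 5.37 in the ACD21 lists, and its summit lay 335 bp beyond the end of APK, which encodes an adenosine-phosphosulfate kinase of sulfur assimilation. The peak at chr4:1802215-1802593, 938 bp beyond the pseudogene AT4G03840, had 4.83 and the highest CG density of all outside peaks, 11.3 per 100 bases. The peak at chr5:11652030-11652403 in AT5G31651 had 6.60 and was also called in acd15 acd21 replicate 2, at 4.11, and the peak at chr2:4239963-4240366 in AT2G10780 had 5.57. Since overlap with ACD15 or ACD21 was a ground for naming these 6 peaks, nothing is read from it; such an overlap was found for 52.9% of outside peaks and 85.5% of all peaks of replicate 2. None of the 6 was called in wild type replicate 1.

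Few outside peaks were called in both wild type replicates. In replicate 1, 6 of 617 outside peaks (0.972%, exact 95% interval over peaks 0.358 to 2.1) overlapped the replicate 2 list, against 4.78% of all its peaks. In replicate 2, 7 of 68 (10.3%, 4.24 to 20.1) overlapped the replicate 1 list, against 13.7% of all its peaks. The outside peaks called in both replicates lie at arrays A, B and D, the peak near AT3G20160, a peak at chr3:11501048-11501462 in the long noncoding RNA gene AT3G29644 (folds 2.52 and 8.78), and a peak at chr2:3421332-3422392 in the pseudogene AT2G07717 (2.24 and 2.86). The seventh outside peak of replicate 2, at chr2:5207255-5207498 in the pseudogene AT2G12700, overlapped an inside peak of replicate 1.

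Overlap with acd15 acd21, whose lists hold 3987 and 404 peaks, was higher for the list of the same replicate number. Of the 617 outside peaks of replicate 1, 365 (59.2%, 55.2 to 63.1) overlapped the acd15 acd21 list of replicate 1, against 53.2% of all peaks of that wild type list, and 4 (0.648%, 0.177 to 1.65) overlapped acd15 acd21 replicate 2, against 0.43%. Of the 68 in replicate 2, 16 (23.5%, 14.1 to 35.4) overlapped acd15 acd21 replicate 2, against 23.6% of all peaks, and 9 (13.2%, 6.23 to 23.6) overlapped replicate 1, against 15.6%. The share of replicate 2 lies near that of all its peaks, and that of replicate 1 lies somewhat above it (inside peaks 51.9%). No outside peak was called in all 4 MBD6-RFP lists. The 4 outside peaks of replicate 1 called in both mutant lists lie near the pseudogenes AT3G32425, AT1G38416 and AT5G32267 and in AT5G32490, with wild type folds of 3.54, 2.97, 2.64 and 3.04, and the 1 of replicate 2 lies near the pseudogene AT2G01031, with a fold of 4.09.

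Where both lists of replicate 1 held a peak, outside and inside peaks differed in which genotype had the higher fold. Among the 365 shared outside peaks the wild type list had a median fold of 3.38 and the mutant list one of 3.90, and 275 were higher in acd15 acd21. Among the 1493 shared inside peaks the medians were 6.21 and 4.71, and 408 were higher in acd15 acd21. In replicate 2, 6 of 16 outside peaks (medians 3.72 in wild type and 3.27 in the mutant) and 37 of 278 inside peaks (3.85 and 2.61) were higher in acd15 acd21. Where several mutant peaks overlapped a wild type peak, the highest mutant fold was taken. The peaks were chosen by their wild type calls and kept only where the mutant list also held a peak, so these counts are descriptions. Fold also depends on each library's own background and depth, which are unknown, so a shift between the genotypes was not tested.

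ACD15 and ACD21 covered fewer outside than inside peaks in both replicates. In replicate 1, 39 outside peaks (6.32%, 4.53 to 8.54) overlapped a merged ACD15 region, against 66.2% of all peaks of the list and 79.0% of inside peaks, and 24 (3.89%, 2.51 to 5.73) an ACD21 region, against 52.9% and 63.5%. In replicate 2, 34 outside peaks (50%, 37.6 to 62.4) overlapped ACD15, against 83.8% and 85.7%, and 25 (36.8%, 25.4 to 49.3) overlapped ACD21, against 71.1% and 73.0%. The difference between outside and inside peaks was -72.7 and -35.7 percentage points for ACD15 and -59.6 and -36.3 for ACD21. With 2 libraries an exact sign-flip permutation test cannot go below p = 0.5 (two-sided), which is what both differences gave.

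**Figure D3:**
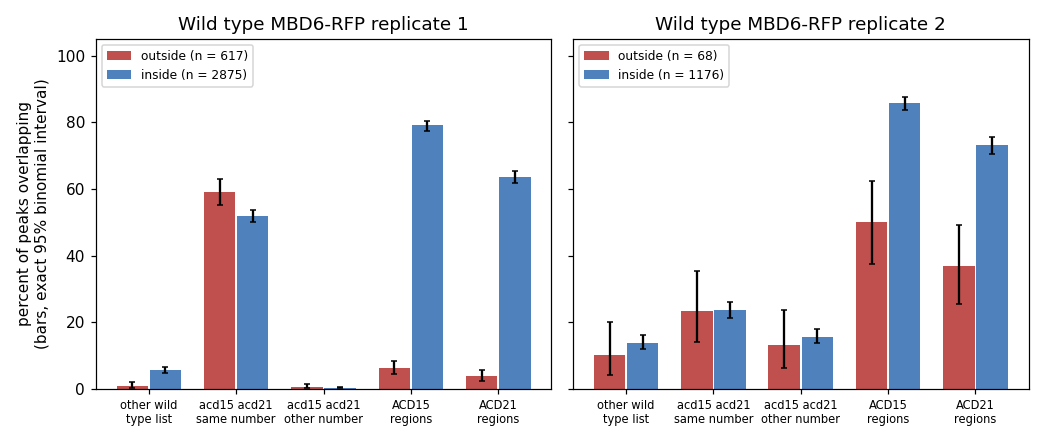
Percent of outside and inside peaks (vertical axis) of each wild type MBD6-RFP replicate that overlap another list by at least 1 bp; bars are shares of peaks and whiskers exact 95% binomial intervals over peaks. ACD15 and ACD21 overlap 6.32% and 3.89% of outside peaks in replicate 1 and 50% and 36.8% in replicate 2, below the shares of inside peaks, while the overlaps with the same-numbered acd15 acd21 list are 59.2% against 51.9% of inside peaks and 23.5% against 23.6%.

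Pseudogenes held more outside peaks than any other annotated class; the class includes transposon genes in this annotation, which has no separate transposon features. The centre fell in a pseudogene for 310 of 617 outside peaks of replicate 1 (50.2%, 46.2 to 54.3) and 560 of 2875 inside peaks (19.5%), and for 41 of 68 (60.3%, 47.7 to 72.0) and 487 of 1176 (41.4%) in replicate 2. Pseudogenes cover 8.68% of the bases of the 5 chromosomes. Protein-coding gene bodies, which cover 54.1% of the bases, held 69 outside peaks of replicate 1 (11.2%, inside 15.2%) and 3 of replicate 2 (4.41%, inside 13.2%). The 1 kb upstream of protein-coding genes held 16 (2.59%, inside 17.0%) and 1 (1.47%, inside 10.3%). The differences of 30.8 and 18.9 percentage points for pseudogenes, and of -14.5 and -8.82 for promoters, had the same direction in both libraries, and the exact sign-flip permutation test gave its smallest p, 0.5, for each.

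For gene density the difference had opposite signs in the replicates. In replicate 1, 512 outside peaks (83.0%, 79.8 to 85.9) lay in gene-poor bins, against 35.2% of inside peaks, while in replicate 2 it was 34 (50%, 37.6 to 62.4) against 54.9%. Gene-poor bins make up 16.8% of all bins. The differences were 47.8 and -4.93 percentage points (exact sign-flip permutation test, two-sided p = 1.0). Outside peaks of replicate 1 were spread over the chromosomes, with 92 on chromosome 1, 130 on chromosome 2, 136 on chromosome 3, 126 on chromosome 4 and 133 on chromosome 5. In replicate 2, 29 of 68 (42.6%) were on chromosome 2, which held 18.6% of its inside peaks.

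**Figure D4:**
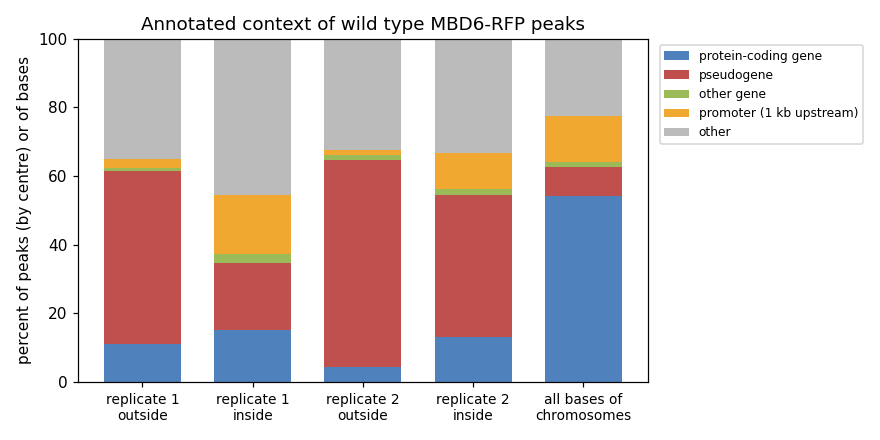
Percent of wild type MBD6-RFP peaks by the annotation at their centre (stacked bars, vertical axis) for outside and inside peaks of each replicate, beside the percent of all bases of chromosomes 1 to 5. Pseudogenes take 50.2% and 60.3% of outside peaks, 19.5% and 41.4% of inside peaks and 8.68% of bases.

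A cluster at the start of chromosome 2, beside which a nucleolus organiser with ribosomal RNA genes is known to lie, held 15 of the 29. These outside peaks lay between positions 20350 and 48326, with folds from 2.22 to 5.30 (median 3.69), and 12 of them overlapped an ACD15 region, against 34 of all 68 outside peaks and 83.8% of all peaks of that replicate. In the first 100 kb of the chromosome, replicate 1 had 1 outside peak, with a fold of 2.49. The same 100 kb held 2 inside peaks of replicate 1 and 6 of replicate 2, and 5 of these 6 overlapped an ACD15 region. The outside peaks of the cluster neighbour each other and are not independent sites.

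Outside peaks repeated in sequence more often than inside peaks. Of the summit windows, 31.4% of outside and 50.5% of inside windows of replicate 1 had a single copy in the genome, and 25.0% and 44.7% of replicate 2, where a copy needed 90% identity over 80% of the window. The median number of copies was 4 against 1 in replicate 1 and 11 against 2 in replicate 2 (exact sign-flip permutation test, two-sided p = 0.5, the smallest possible). The sources used here do not give how reads from near-identical copies were placed, so a peak in such a sequence cannot be assigned to 1 copy with certainty. Windows were joined into families when they matched at 80% identity over at least 50% of their length. By that rule 259 outside peaks of replicate 1 (42.0%) and 30 of replicate 2 (44.1%) belonged to a family of 3 or more, and 297 and 31 matched no other outside peak. The families were numbered by size, and the arrays are family 8, with 9 peaks (array C joined no family of 3 or more).

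Family 1 was the largest, with 67 outside peaks of replicate 1 on all 5 chromosomes and none of replicate 2. Of the 67, 66 overlapped the acd15 acd21 list of replicate 1, 47 had their centre in a pseudogene and 1 overlapped an ACD15 region. Their folds ran from 2.03 to 5.34 with a median of 3.29, and their median CG density was 4.78 per 100 bases. The same sequence was found under 107 of 2095 outside peaks of acd15 acd21 replicate 1 (5.11%) and 5 of 60 of its replicate 2 (8.33%). The 67 of wild type replicate 1 were 10.9% of its outside peaks. Among inside peaks, the sequence lay under 13 of 2875 in wild type replicate 1. In acd15 acd21 it lay under 21 of 1892 inside peaks of replicate 1 and 2 of 344 of replicate 2. Family 3 had 17 outside peaks of replicate 1 (2.76%), of which 15 overlapped acd15 acd21 replicate 1. Its sequence lay under 41 of the 2095 outside peaks of that mutant list (1.96%) and under no inside peak of any of the 4 MBD6-RFP lists. Family 2 had 24 outside peaks, 20 of them with their centre in a pseudogene, and 14 overlapped the acd15 acd21 list of replicate 1. Beside these counts stand 59.2% of all outside peaks of replicate 1 that overlapped that list, which the count of family 2 is near, and 50.2% with their centre in a pseudogene.

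In family 7, by contrast, none of the 10 outside peaks, all in pseudogenes on 5 chromosomes, overlapped acd15 acd21 replicate 1, which 59.2% of all outside peaks of that replicate did. Low overlap was not particular to family 7. Of the outside peaks of replicate 1, 1 of 10 in family 6 and 5 of 16 in family 4 overlapped that list, while 12 of 12 in family 5 did. The sequence of family 7 lay under 15 inside peaks of wild type replicate 1, and under 1 inside and no outside peak of acd15 acd21 replicate 1. Family 16 was seen in replicate 2 alone among the wild type outside peaks, with 5 peaks on chromosome 2 that all had their centre in a pseudogene and all overlapped an ACD15 region, against 60.3% and 50% of all outside peaks of replicate 2. Its folds ran from 2.94 to 8.33 with a median of 5.30, and its median CG density was 6.81 per 100 bases. The sequence of family 16 also lay under 8 of 1176 inside peaks of wild type replicate 2 (0.680%), against 5 of 68 outside peaks (7.35%). In acd15 acd21 it lay under 1 outside and 1 inside peak of replicate 1 and under 2 inside peaks of replicate 2. The families were chosen after the peaks were read, and their overlap with other lists is a description with no test. The summit windows of the highest-scoring peak of families 1, 3, 7 and 16 are shown as examples of the repeated sequences just described; they lie at chr4:4435315-4435515, chr5:12074311-12074511, chr5:10141354-10141554 and chr2:3229731-3229931 on the plus strand and hold 13, 10, 9 and 19 CG.
family 1: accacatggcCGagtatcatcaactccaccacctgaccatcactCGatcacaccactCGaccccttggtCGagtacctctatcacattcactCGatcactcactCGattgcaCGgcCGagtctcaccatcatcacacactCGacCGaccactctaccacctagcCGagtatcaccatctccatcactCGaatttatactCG
family 3: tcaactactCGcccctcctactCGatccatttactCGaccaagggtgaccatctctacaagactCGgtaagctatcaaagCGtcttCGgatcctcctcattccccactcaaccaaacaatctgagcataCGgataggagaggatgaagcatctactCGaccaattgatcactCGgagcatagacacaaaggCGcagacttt
family 7: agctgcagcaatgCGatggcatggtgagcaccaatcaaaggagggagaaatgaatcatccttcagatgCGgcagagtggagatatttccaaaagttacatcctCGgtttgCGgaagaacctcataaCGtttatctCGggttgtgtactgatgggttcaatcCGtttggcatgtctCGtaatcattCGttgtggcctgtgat
family 16: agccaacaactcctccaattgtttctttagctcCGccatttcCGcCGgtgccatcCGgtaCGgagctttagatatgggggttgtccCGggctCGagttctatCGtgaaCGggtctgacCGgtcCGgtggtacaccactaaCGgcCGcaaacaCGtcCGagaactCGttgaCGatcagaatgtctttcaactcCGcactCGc

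**Figure D5:**
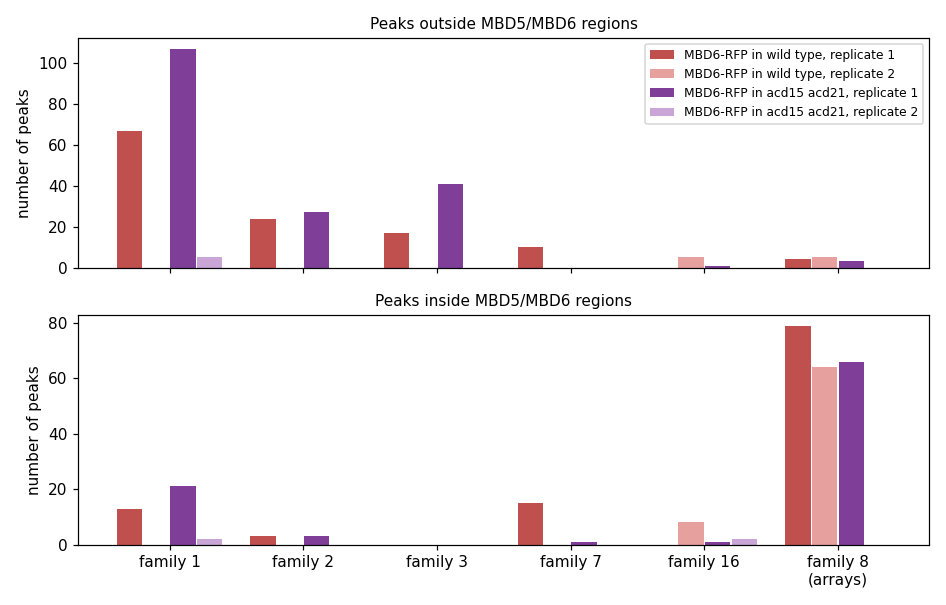
Number of peaks (vertical axis) whose summit window matches each family (horizontal axis) in the 4 MBD6-RFP lists, outside MBD5/MBD6 regions above and inside below. Family 1 has 67 of 617 outside peaks in wild type replicate 1 and 107 of 2095 in acd15 acd21 replicate 1, and family 7 has 10 and 0 of them. The arrays have 79, 64 and 66 inside peaks in wild type replicates 1 and 2 and acd15 acd21 replicate 1, and 0 in acd15 acd21 replicate 2.

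A few outside peaks matched the mitochondrial genome of the same assembly. In all, 6 of 617 outside peaks of replicate 1 (0.972%) and 3 of 68 of replicate 2 (4.41%) had summit windows that matched it at 97.3% to 100% identity. Among inside peaks it was 3 of 2875 (0.104%) in replicate 1 and 0 of 1176 in replicate 2. Of the 9 outside peaks, 7 lie on chromosome 2 between 3242382 and 3719435, around the large insertion of mitochondrial DNA known there. They include the shared peak in AT2G07717, which is counted once in each replicate. The other 2 lie on chromosome 1 at chr1:24272390-24273030 and chr1:24275843-24276232. The folds of the 9 ran from 2.24 to 4.68. The sources used here do not give how reads that match both the insertion and the mitochondrial genome were placed.

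CG was denser in outside peaks than in the genome, and about as dense as in inside peaks. Median CG per 100 bases was 3.73 for outside and 3.26 for inside peaks in replicate 1, and 6.94 and 6.83 in replicate 2, while the chromosomes as a whole hold 2.34. The difference of 0.47 and 0.11 gave p = 0.5 by the exact sign-flip permutation test, the smallest possible. In the summit windows the order turned round in replicate 1 (4.48 outside, 4.98 inside) and the medians were equal in replicate 2 (7.96 each). A CG density at or above the median of these outside windows was found in 12.0% of consecutive windows of the genome for replicate 1 and in 1.38% for replicate 2. GC content was higher in outside peaks, with medians of 43.2% and 52.9% against 36.5% and 51.4%. The gap between the replicates, 3.73 against 6.94, was far wider than that between outside and inside peaks within a replicate.

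None of the other words searched was found often under outside peaks. Both strands of the summit windows were searched, and of the words searched CG lies within CACGTG. AAACCCTA, the telobox, was in 2.27% of outside windows of replicate 1 and 0 of 68 of replicate 2, against 2.64% of all genome windows. GAGAGAGA was in 1.30% and 0 of 68, against 3.19%. CACGTG, the G-box, was in 3.40% and 4.41%, against 2.20%, and TGGGCC, the site II element, in 5.35% and 2.94%, against 3.06%. The windows of inside peaks held TGGGCC at 6.75% and 11.1% and the other 3 at 1.70% to 4.77%.

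Few genes had an outside peak from 1 kb upstream of their start to their end. Replicate 1 had one at 566 of 37899 annotated genes (1.49%) and replicate 2 at 46 (0.121%). These were 112 of 27444 protein-coding genes (0.408%) and 431 of 4843 pseudogenes (8.90%) in replicate 1, and 6 and 37 in replicate 2. No gene of the lists on abundantly transcribed genes (10), DNA methylation and silencing (17), promoter-methylated or imprinted genes (12), the MBD5/MBD6 complex (4) and floral identity (10) had one in either replicate. The same held for the 344 ribosomal protein, 27 chlorophyll-related, 82 snRNA, 287 snoRNA and 4 rRNA genes. In replicate 1, 2 of 625 tRNA genes, 4 of 326 microRNA genes, 1 of 115 genes with a histone-related product and 1 of 111 heat shock genes had an outside peak, and in replicate 2 none did.

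The named ones were low except at MIR5651. A peak within HAC12, which encodes a CBP-family histone acetyltransferase, had a fold of 3.84 in wild type and 4.43 in acd15 acd21 replicate 1. A peak 585 bp upstream of MIR5638b had 4.01 and 3.93, and a peak in the pseudogene AT5G31719, beside MIR854d, had 3.67 and 3.94 with 7.31 CG per 100 bases. A peak within UMAMIT32, a gene of the nodulin-like EamA transporter family, had 4.53 and 4.66 and also fell in the window of the tRNA gene AT3G30345. The peak at the tRNA gene AT5G32017, at chr5:11784937-11785361, had a fold of 1.91 and was called in no other list. The peak beside MIR4239, 21 bp from an MBD5/MBD6 region, had 3.19, and that within AT3G30520, annotated as a heat shock protein, had 3.05.

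Within each replicate number a larger share of the MBD6-RFP list lay outside MBD5/MBD6 regions in acd15 acd21 than in wild type. The share was 17.7% and 5.47% in wild type (mean 11.6 ± 8.63, SD, n = 2) and 52.5% and 14.9% in acd15 acd21 (mean 33.7 ± 26.7, SD, n = 2). The difference of -22.1 percentage points was within the spread between replicates (exact permutation test over 2 against 2 libraries, two-sided p = 0.667, smallest possible 0.333). The wild type shares come from the lists that the rule used. No conclusion on the genotype is drawn from this test or from the further tests of this share. Among peaks with a -log10 q of at least 5 the difference was -24.5 percentage points and the genotypes did not overlap, which gave the smallest possible p, 0.333, in the same exact permutation test; other settings gave p = 0.5 to 0.667. In numbers, wild type had 617 and 68 outside peaks covering 363 and 25.3 kb, and acd15 acd21 had 2095 and 60 covering 867 and 17.1 kb. The share of outside peaks in gene-poor bins was 31.7% and 63.3% in acd15 acd21 and 83.0% and 50% in wild type, replicate 1 first (exact permutation test, two-sided p = 0.667). Their median fold was 3.70 in both mutant replicates. The highest peak number in the wild type lists was 6588 and 1289, of which 53.0% and 96.5% remain, and in the acd15 acd21 lists 9290 and 434, of which 42.9% and 93.1% remain; whether the missing ones lay outside MBD5/MBD6 regions was not tested.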

How the data were processed

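ChIP-seq peak lists from Arabidopsis thaliana inflorescences were used: 4 MBD6-RFP, 2 ACD15-FLAG and 2 ACD21-FLAG library lists, and merged lists for ACD15, ACD21 and MBD5/MBD6. The submitters' processing notes name MACS2 2.1.0, HOMER, deepTools 3.0.2, Bowtie2, Trim Galore and Picard, and the build TAIR10; the sources used here do not give settings, controls or the handling of multiply mapped reads. Each library list was called on a single library. Its score and its fold enrichment, a ratio, were deposited by the authors, and so were -log10 p and -log10 q. The merged lists hold a count of joined peaks per region, deposited by the authors. Per the file headers, the ACD15 and ACD21 lists were joined with mergePeaks from both replicates; the MBD5/MBD6 list joins broad peaks named for MBD5 and MBD6 in wild type, whose libraries are not analysed here. The names of the MBD6-RFP lists say that regions prone to unspecific enrichment were removed. No depth is given, so precision from depth is unknown.

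Starts were turned from 0-based to 1-based, and overlap required 1 bp. Gene context was taken at the peak centre, in the order protein-coding gene, pseudogene, other gene, promoter of 1 kb, other, from the TAIR10.1 annotation; no peak ended beyond its chromosome. Windows held the summit and 100 bp to either side. Copies, families and array alignments used BLAST 2.17.0, and tables used pandas 2.3.3, numpy 2.4.6 and scipy 1.17.1. Intervals are exact 95% Clopper-Pearson intervals over peaks, cover counting error only and treat peaks as independent. Genotypes were compared by exact permutation of libraries, and outside with inside peaks by exact sign-flip of 2 library pairs. Both tests were checked on set values with a known answer, and the overlap and gap steps on simulated intervals. Named peaks are those shared between wild type replicates, the 12 and 8 with the highest score, those called in both mutant lists, those at listed genes, and up to 10 per replicate in ACD15 or ACD21 regions. The peaks and gene lists were chosen with earlier results of these data known; the repeat word, the families, the organelle matches, the split by score and the chromosome 2 cluster were chosen after the values were seen.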

Additional observations from a re-analysis of the deposited data

How the results depend on the processing

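Of 64 recomputed values, 53 kept their direction and their side of the threshold, or, where no test was made, stayed within the limits set for a move (some of them still changed in size, as given below); 10 moved and 1 reversed. At -log10 q of at least 5 the number of outside peaks in replicate 1 was 282 in place of 617. It was 433 with a gap of at least 1 kb, and 799 when a peak counted as inside only if 50% of it was covered. Both of these were counted among the values that did not move. At -log10 q of at least 5 the shares of outside peaks of replicate 1 overlapping acd15 acd21 replicate 1, ACD15 and ACD21 were 69.9%, 11.7% and 8.16%. With at least 50% of the peak covered, replicate 1 shares were 0.162% for the other wild type list, 54.5% for acd15 acd21 replicate 1 and 4.38% for ACD15. By any overlap in place of the centre, 55.8% of outside peaks of replicate 1 were in pseudogenes and 28.4% in no annotated class, and with promoters of 500 bp, 1.30% were in promoters. The mean difference in CG density, 0.29 over whole peaks, became -0.25 in the summit windows (exact sign-flip permutation p = 1.0); the cause was not tested. Leaving out a replicate gave 0.11 to 0.47 for CG density and -34.9 to -9.39 percentage points for the genotype difference.

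With the replicate number as a block, the genotype difference was -22.1 percentage points (exact paired sign-flip permutation p = 0.5, the smallest for 2 pairs), against p = 0.667 without it. The labels do not say that a number marks a shared day or batch. Same-numbered lists shared more outside peaks (59.2% and 23.5%) than other-numbered ones (0.648% and 13.2%). Over all wild type peaks the shares were 53.2% and 23.6% against 0.43% and 15.6%. The acd15 acd21 lists hold 3987 and 404 peaks, and the cause of the pattern was not tested. Depth, unknown here, limits every statement about a peak that was not called.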
